A study of Mus musculus with 4 samples.

Results

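The 10 genes described here encode haematopoietic cytokine receptors or their chains. They were taken by symbol from the deposited table of unique molecular identifier (UMI) counts, in which all 10 of 27998 gene symbols had a row: Kit, Flt3, Csf1r, Csf2ra, Csf2rb, Csf2rb2, Csf3r, Il3ra, Il6ra and Ifngr1. The list was not computed from measured values, but it was chosen with earlier results of these data known. Of the 10, 9 reached a mean of 5 CPM (UMIs of the gene per 1000000 UMIs of a library) over the libraries, as did 8244 genes of the table. Csf2rb2 lay just below, at a mean of 4.18 CPM.

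The study profiled single cells of a mouse acute myeloid leukaemia driven by the MLL-AF9 fusion. Every group carried floxed Hif-1alpha alleles, an inducible CreERT2 recombinase and the MLL-AF9 retrovirus, which had been put into c-Kit+ marrow cells that were then grown as primary leukaemias in wild type mice. The strain is given as C57BL6. Primary leukaemias were transplanted again, and 10 days later the new hosts received tamoxifen (1 mg for 5 days) or vehicle. They were then given cytarabine (100 mg/kg for 5 days) with doxorubicin (3 mg/kg for 3 days), or PBS. Bone marrow was collected 3 days after treatment ended and sorted for GFP+, retrovirus-bearing cells, so host cells were gated out, and the animals' age is given as 11 weeks. There were 4 samples, 1 each of Hif-1a wt with PBS, Hif-1a KO with PBS, Hif-1a wt with chemotherapy and Hif-1a KO with chemotherapy. The labels do not say which groups had vehicle in place of tamoxifen. The table separates its cells by barcode suffixes 1 to 4, which name no sample. The suffixes are therefore 4 libraries of unknown group, and no genotype, treatment or replicate comparison was made.

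Cytokine receptors set which growth factors a blood cell can respond to. Kit, Flt3 and Csf1r are receptor tyrosine kinases, whereas the other members lack an enzyme of their own and signal through JAK kinases and STAT transcription factors. The receptors for GM-CSF and IL-3 pair a private alpha chain with a beta chain, and mice carry a second beta chain, Csf2rb2, that serves IL-3 alone. In normal haematopoiesis Kit and Flt3 mark early progenitors, Csf1r marks the monocyte and macrophage lineage and Csf3r marks the granulocyte lineage.

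Barcodes with 500 or more UMIs of which no more than 10% were mitochondrial were kept, which left 5456 of 5664, with 1174 to 1625 cells and 7644436 to 9932649 UMIs in each suffix. Median depth was 6093.5 and 6435 UMIs per cell in suffixes 1 and 2, against 5315 and 5324 in suffixes 3 and 4. Leukaemia and blood genes were present (Ptprc at 60.6 to 85.6 CPM, Hoxa9 at 155 to 200, Meis1 at 42.1 to 50.9), and the T cell gene Cd3e had no UMI. Summed markers were low for some other cells, at 0.201 to 2.04 CPM for T and NK cells and 7.08 to 11.0 CPM for erythroid cells. The B cell list summed to more, 67.2 to 89.0 CPM. The stromal and endothelial list summed to 80.0 to 97.2 CPM, with its gene Pecam1 at 77.0 to 95.5 CPM. Suffixes 1 and 2 stood apart from 3 and 4 in maturation markers. The granulocyte precursor list summed to 17034, 20261, 9647 and 10228 CPM in suffixes 1 to 4, and the neutrophil list to 1002, 1632.5, 18637 and 13504 CPM. The monocyte list summed to 5658, 6581, 9429.51 and 9534 CPM, and the macrophage list to 154, 181, 545 and 549.8 CPM. Among kept cells 15 barcode sequences occurred under more than 1 suffix. Hif1a stood at 38.5, 35.2, 29.5 and 26.5 CPM, a tag at the transcript's end that does not check a deletion elsewhere in the gene.

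Genomic positions are those of GENCODE on GRCm38. Kit lies at chr5:75574916-75656722 on the plus strand and Flt3 on the same chromosome at chr5:147330741-147400489 on the minus strand. The beta chains neighbour each other on chromosome 15, Csf2rb at chr15:78325752-78353847 on the plus strand and Csf2rb2 at chr15:78282507-78305721 on the minus strand, with 20030 bases between them. The other members are spread over the genome, with Csf2ra at chr19:61223957-61228429 (minus), Csf3r at chr4:126024550-126044440 (plus), Il3ra at chr14:14346275-14356011 (plus), Il6ra at chr3:89864059-89913196 (minus) and Ifngr1 at chr10:19591949-19610229 (plus).

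Promoter windows of 250 bases before the RefSeq start (GRCm38.p6) were read for 8 of the 10 members. They were searched on both strands for 5 short motifs of blood transcription factors: the PU.1 core GAGGAA, the C/EBP palindrome TTGCGCAA, the C/EBP sequence TTGCAT, the RUNX sequence TGTGGT and the GATA sequence AGATAA. PU.1 drives myeloid receptor genes, and its core was found in Kit, Csf2ra, Csf2rb2, Csf3r and Il6ra, and not in the windows of Flt3, Il3ra or Ifngr1. Of 27025 mouse promoters of this length, 23.1% held the core. The only other matches were 1 TTGCAT in Csf2ra and 1 AGATAA in Il6ra, motifs held by 9.46% and 10.3% of promoters. No member window held the C/EBP palindrome (0.170% of promoters) or the RUNX sequence (14.2%). The windows printed here belong to 3 receptors whose level in the monocyte-like cells below was above that of the other cells, and to Flt3, whose level there was lower. The members do not divide that way as a whole: Il3ra and Ifngr1 lack the core and had log2 ratios of 0.40 and 0.51 in those cells, and Kit holds it and was called lower. The windows were picked after the matches had been seen, and those of Kit and Csf3r, which run further into annotated transcripts, are not printed. The window of Il3ra, at chr14:14346245-14346494, lies mostly within the annotated gene, which begins at 14346275. Its lack of the core therefore says little about the sequence upstream. Capitals mark the PU.1 core in either orientation, and all 4 sequences run 5′ to 3′ on the minus strand, at chr3:89913197-89913446 for Il6ra, chr19:61228419-61228668 for Csf2ra, chr15:78305722-78305971 for Csf2rb2 and chr5:147400490-147400739 for Flt3.
Il6ra: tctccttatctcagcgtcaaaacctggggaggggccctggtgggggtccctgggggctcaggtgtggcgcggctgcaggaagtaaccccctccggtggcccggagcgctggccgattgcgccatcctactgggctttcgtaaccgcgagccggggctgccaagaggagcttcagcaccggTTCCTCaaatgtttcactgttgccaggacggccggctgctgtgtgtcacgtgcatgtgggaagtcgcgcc
Csf2ra: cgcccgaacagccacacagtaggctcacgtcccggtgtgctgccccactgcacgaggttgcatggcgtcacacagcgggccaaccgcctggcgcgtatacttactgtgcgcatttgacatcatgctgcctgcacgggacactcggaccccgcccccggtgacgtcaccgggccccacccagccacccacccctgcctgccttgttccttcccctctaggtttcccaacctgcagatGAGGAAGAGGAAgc
Csf2rb2: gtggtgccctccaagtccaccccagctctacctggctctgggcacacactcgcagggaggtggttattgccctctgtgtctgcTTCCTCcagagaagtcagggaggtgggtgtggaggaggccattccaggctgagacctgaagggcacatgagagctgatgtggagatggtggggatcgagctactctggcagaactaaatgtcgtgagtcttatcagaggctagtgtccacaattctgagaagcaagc
Flt3: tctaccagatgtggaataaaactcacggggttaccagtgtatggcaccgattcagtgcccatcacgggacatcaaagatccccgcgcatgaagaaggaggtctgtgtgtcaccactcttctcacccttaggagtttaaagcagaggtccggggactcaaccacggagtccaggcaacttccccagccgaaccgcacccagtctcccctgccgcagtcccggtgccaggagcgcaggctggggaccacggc
The Il6ra core lies 65 bases from the start and that of Csf2rb2 162 bases from it. The paired cores of Csf2ra lie 9 and 3 bases from it. The GENCODE transcript begins further upstream, so it holds the nearer core whole and the other in part. A match describes the letters of these windows and is not a binding site.

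Of the receptor tyrosine kinases, Kit and Csf1r differed most between the libraries and in opposite senses. Kit, the receptor for stem cell factor, stood at 17.4, 15.3, 5.94 and 5.85 CPM in suffixes 1 to 4, from 133, 127, 59 and 50 UMIs. Its 95% intervals, which cover counting error only here and throughout, ran from 14.6 to 20.6 CPM in suffix 1 and from 4.34 to 7.71 in suffix 4. Csf1r, on chromosome 18, the receptor for M-CSF and IL-34 on which macrophages depend, stood at 13.7, 16.3, 53.4 and 53.6 CPM, with intervals of 11.2 to 16.6 in suffix 1 and 48.9 to 58.1 in suffix 3. Suffixes 1 and 2 were thus the higher pair for Kit and the lower pair for Csf1r. Flt3, the receptor for FLT3 ligand, was far more level, at 104, 89.0, 100.3 and 113 CPM.

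Among the chains for GM-CSF and IL-3, the ligand-binding Csf2ra stood at 36.6, 43.9, 67.7 and 72.0 CPM and the IL-3-binding Il3ra at 71.8, 79.6, 94.4 and 92.5 CPM. The shared beta chain Csf2rb stood at 35.6, 29.7, 46.7 and 47.6 CPM, and the IL-3 beta chain Csf2rb2 at 2.35, 3.24, 5.03 and 6.08 CPM, from 18 to 52 UMIs. All 4 chains were lowest in suffixes 1 and 2. The transcripts of Csf2rb and Csf2rb2 were 89.8% identical over their alignment, and 82.5% over the last 500 bases, where these tags are read. None of the 403 stretches of 98 bases tested there was shared, yet the counting could still split reads between them, so both values are uncertain.

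Csf3r, the G-CSF receptor, was the most even of the low members, at 19.4, 19.7, 25.4 and 23.6 CPM. Il6ra, which binds IL-6 and signals through Il6st (gp130), stood at 15.3, 14.4, 44.5 and 49.6 CPM, with intervals of 11.9 to 17.2 in suffix 2 and 44.98 to 54.5 in suffix 4. Ifngr1, the chain that binds interferon gamma, was the most abundant member in each suffix, at 356, 361, 288 and 291 CPM. These tags count transcript ends, so levels of different genes need no scaling by length. The partner Il6st was scarce, at 7.59, 6.72, 8.56 and 9.12 CPM, and the partner Ifngr2 stood at 44.3, 49.5, 65.5 and 60.6 CPM, below Ifngr1 in each suffix. Reads of Flt3, Csf1r, Il3ra and Il6ra cannot be told apart from those of overlapping annotated genes if strand was not used, which the sources used here do not state.

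**Figure D1:**
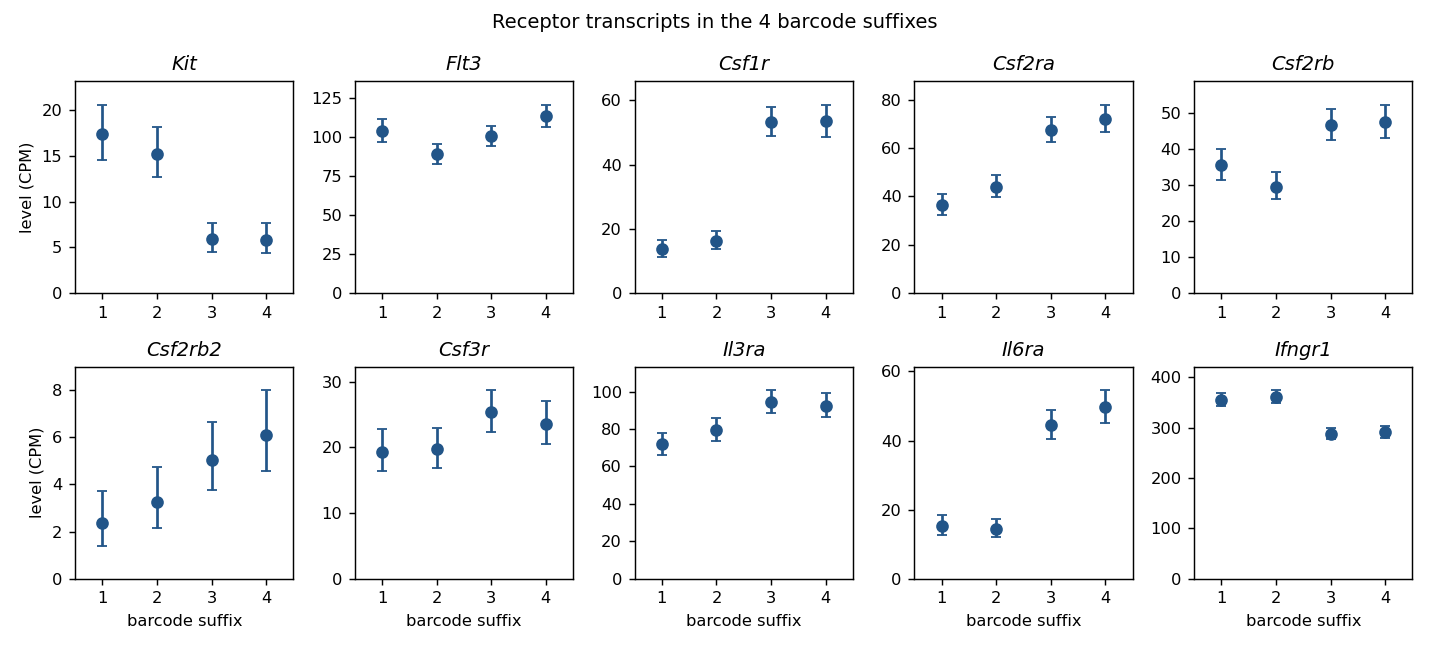
Level of each member (CPM, 1 panel a gene, axes from 0) in barcode suffixes 1 to 4, with exact Poisson 95% intervals as bars. Kit was higher in suffixes 1 and 2 (17.4 and 15.3 CPM) than in 3 and 4 (5.94 and 5.85 CPM), and Csf1r and Il6ra the reverse.

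The ratio of the highest to the lowest suffix, with 1 CPM added to both, was 3.70 for Csf1r, 3.28 for Il6ra and 2.69 for Kit. These 3 of the 9 measured members passed 2-fold, against 10.7% of all 8244 measured genes (884 genes). Csf2ra, just short of the limit, was at 1.94-fold, and Csf2rb2, under the level minimum, 2.11-fold. The others lay at 1.59 (Csf2rb), 1.31 (Il3ra), 1.30 (Csf3r), 1.27 (Flt3) and 1.25 (Ifngr1). The median ratio was 1.59 over the members and 1.40 over all measured genes.

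The same 3 members passed 2-fold in an additional comparison, chosen after the data had been seen, of the 3722 cells outside the granulocyte precursor-like, neutrophil-like and monocyte-like classes defined below, where 9.33% of genes did. There Kit stood at 15.2, 14.2, 6.42 and 5.99 CPM, Csf1r at 14.5, 17.1, 41.3 and 43.2 CPM, and Il6ra at 15.6, 15.1, 36.8 and 42.1 CPM. The contrasts in Csf1r and Il6ra, now 2.86-fold and 2.68-fold, were smaller than over all cells but kept their direction. These cells are not free of monocyte-marked ones. They include cluster 7, with 5 monocyte and 4 macrophage markers raised, which held 2.64%, 2.64%, 26.8% and 20.3% of suffixes 1 to 4. Within a single unnamed cluster of 577 cells led by the S-phase genes Ung and Rrm2 (cluster 2), Kit stood at 12.8, 13.8, 6.23 and 4.29 CPM and Csf1r at 10.3, 13.1, 24.2 and 28.3 CPM. Kit and Csf1r were the 2 of 9 members past 2-fold there, as were 18.7% of genes at this lower depth, and Il6ra stood at 18.0, 10.2, 19.4 and 18.9 CPM, or 1.82-fold.

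Other clusters with at least 30 cells in every suffix did not all show the split. In cluster 5 (389 cells, led by Ube2c and Hist1h2ap) 6 of 9 members passed 2-fold, against 30% of genes, with Csf1r at 9.28, 12.2, 34.7 and 28.8 CPM and Il6ra at 9.28, 19.9, 39.4 and 30.6 CPM. In cluster 1 (481 cells, led by Nfil3 and Ddx4) 3 of 9 passed, against 32.9% of genes, and Csf1r stood at 41.0, 21.8, 37.5 and 40.9 CPM, with suffix 1 as high as 3 and 4. In cluster 7 (784 cells) 4 of 9 passed, against 55.7% of genes, and Csf1r stood at 60.3, 94.4, 68.8 and 66.8 CPM, highest in suffix 2. In cluster 8 (390 cells) 3 of 9 passed, against 48.3%, and Il6ra stood at 65.6, 36.3, 50.7 and 56.3 CPM. Clusters 7 and 8 held only 31 to 38 cells in suffixes 1 and 2. Csf1r in cluster 8 stood at 38.3, 68.0, 46.8 and 61.4 CPM, and Il6ra in cluster 7 at 7.54, 25.8, 49.7 and 66.0 CPM. In level, Csf1r was lower in suffixes 1 and 2, past 2-fold, in clusters 2 and 5 and not in 1, 7 or 8. Il6ra was so in clusters 5 and 7. Intervals still overlapped in part. In cluster 2 those of Csf1r were 7.76 to 20.7 CPM in suffix 2 and 16.9 to 33.7 in suffix 3. In cluster 5 those of suffixes 2 and 4 were 5.28 to 24.1 and 19.7 to 40.6 CPM for Csf1r. For Il6ra they were 10.6 to 34.0 and 21.2 to 42.7 CPM. In these cases the suffix 1 interval lay below those of suffixes 3 and 4. In cluster 7 Il6ra rested on 1 and 3 UMIs in suffixes 1 and 2. Its intervals there, 0.191 to 42.0 and 5.31 to 75.3 CPM, overlapped the 40.0 to 61.0 of suffix 3. The interval of suffix 4, 52.3 to 82.3 CPM, overlapped that of suffix 2 but not that of suffix 1. Kit, from 1 to 10 UMIs per library, stood at 11.9, 12.2, 4.70 and 4.50 CPM in cluster 5. In cluster 8 it stood at 5.47, 9.07, 6.97 and 7.68 CPM. It stood at 5.86, 10.9, 5.17 and 4.39 CPM in cluster 1 and at 7.54, 8.59, 5.46 and 0.836 in cluster 7. Whether the marker totals and depth of the suffixes, which differ in the same way, contribute to the contrasts in these genes was not tested.

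The share of cells with a UMI split between the libraries as the level did for Kit, Csf1r and Il6ra. Before any adjustment for depth a Kit UMI was found in 10.3%, 9.27%, 3.38% and 3.41% of cells of suffixes 1 to 4, and a Csf1r UMI in 8.09%, 9.75%, 25.3% and 26.4%. After each cell was thinned to 2000 UMIs, which left out 29, 20, 45 and 20 shallower cells, these shares were 4.37%, 3.17%, 0.823% and 0.938% for Kit and 3.58%, 3.01%, 13.2% and 12.6% for Csf1r. Both genes kept the split. Il6ra went from 9.11%, 8.63%, 22.7% and 24.5% unthinned to 3.49%, 3.66%, 9.68% and 11.3% thinned, with the same split.

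Flt3 was found in 44.4%, 40.05%, 37.2% and 40.4% of cells, or 21.3%, 18.0%, 18.4% and 18.6% thinned, highest in suffix 1 although its level was highest in suffix 4. Ifngr1 was found in 81.0%, 82.7%, 72.7% and 73.1%, or 49.4%, 48.7%, 41.4% and 42.0% thinned. Unthinned it was the one member seen in most cells of each suffix, and thinned no member was. Thinned shares were 13.1%, 14.6%, 17.8% and 17.2% for Il3ra (unthinned 35.0% to 41.4%) and 7.86%, 9.42%, 13.7% and 14.9% for Csf2ra (unthinned 21.0% to 33.9%). For Csf2rb they were 7.16%, 5.36%, 9.94% and 9.60% (unthinned 17.3% to 24.5%), for Csf3r 2.79%, 5.04%, 6.71% and 5.12% (unthinned 11.5% to 13.8%) and for Csf2rb2 0.731% to 1.52% (unthinned 1.45% to 3.56%). Free RNA can give UMIs in cells that do not express a gene. The lowest thinned share over the 13 clusters is given for this reason, though it can also hold true expression. It was 0% for Kit (in the 34 thinned cells of cluster 12) and Csf2rb2, 0.838% for Csf1r, 1.33% for Il6ra and 1.68% for Csf3r. It was 1.99% for Flt3, 3.63% for Csf2ra, 4.98% for Il3ra, 5.38% for Csf2rb and 26.5% for Ifngr1. Only the Csf2rb share of suffix 2 was not above that share. A suffix share is a mean over its clusters, so it lies above the lowest of them almost by construction. The comparison therefore does not test whether free RNA contributed.

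Cells were clustered without using the members or their pathway genes, and 4 of 13 clusters could be named from marker lists. Clusters 0 and 3 (964 cells, led by Mpo, Myc and Gstm1, and by Nkg7, Ms4a3 and Elane) were granulocyte precursor-like. Cluster 0 (738 cells) had only 3 of the 14 listed markers raised, the fewest that the rule accepts, though 5 were among its 10 leading genes. Cluster 3 (226 cells) had 10 raised, and cluster 6, which was not named, had 4. Cluster 10 (204 cells, led by Ngp and S100a9, with 16 neutrophil markers raised) was neutrophil-like. Cluster 11 (566 cells, median depth 4091 UMIs, led by Apoe, Lpl, Ifitm3, Lyz2 and Fn1) was monocyte-like, with 14 monocyte, 6 macrophage and 5 neutrophil markers raised at least 2-fold. The naming rule was settled after clusterings had been seen, and under a first, stricter version cluster 11 stayed unnamed because monocyte and macrophage markers tied among its leading genes. The classes were very unequally spread over the suffixes, so each was compared with the other cells of its own suffix, and only where both sides held at least 30 cells. Monocyte-like cells numbered 1, 8, 290 and 267 in suffixes 1 to 4, neutrophil-like cells 4, 8, 108 and 84, and granulocyte precursor-like cells 369, 542, 23 and 30. A gene was called where it differed at least 2-fold in 1 direction in every usable suffix, and its value is the median log2 ratio of CPM + 1.

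In the monocyte-like cells 3 receptors were higher and 1 was lower, each set against the remaining cells of its library. Csf1r stood at 157 CPM against 38.2 in the other cells of suffix 3, and at 136 against 40.9 in suffix 4, with ratios of 4.11 (3.43 to 4.92) and 3.32 (2.72 to 4.04). Il6ra stood at 109 against 35.1 and at 116 against 39.3 CPM, with ratios of 3.11 (2.52 to 3.81) and 2.96 (2.40 to 3.65). Both were far above the other cells in both libraries, at a log2 ratio of 1.86 for Csf1r and 1.58 for Il6ra. Csf3r, the receptor usually tied to granulocytes, stood at 54.5 against 21.1 and at 47.3 against 19.98 CPM, a log2 ratio of 1.26. These were the 3 members called higher, of 9, while 4.27% of measured genes were. Neutrophil markers were also raised in this class, 5 in number, and their part in the Csf3r value was not tested. Csf3r was under 2-fold in 1 library in 4 other treatments of the data, with values of 1.01 when cells were weighted equally, 1.03 when thinned, 1.08 at a coarser clustering and 1.17 with variable genes free of cell cycle, ribosomal and mitochondrial genes. At a finer clustering (Leiden resolution 1.5) the class so named was another one of 83 cells, in which none of the 3 was called higher: Csf1r was at 0.72, Il6ra at 0.89 and Csf3r, called lower, at -1.25.

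The GM-CSF chain Csf2ra lay close to the limit in the monocyte-like cells, at 112 against 61.2 and at 145 against 60.7 CPM. Its log2 ratio was 0.86 in suffix 3 and 1.25 in suffix 4, so it was not called. Csf2rb stood at 63.2 against 44.3 and 84.1 against 42.0 CPM (log2 ratio 0.74), and Csf2rb2, too low to be counted, at 12.6 against 3.92 and 14.0 against 4.86 CPM (1.41, from 16 UMIs in each suffix). With the UMIs of both beta chains summed the log2 ratio was 0.85. Il3ra (0.40) and Ifngr1 (0.51) differed less, and Flt3, at 71.1 against 105 and 61.3 against 121 CPM, had a log2 ratio of -0.76.

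Kit was the 1 member called lower in the monocyte-like cells, where 8.02% of genes were. It had 2 UMIs in suffix 3 and 1 in suffix 4, or 1.58 against 6.58 and 0.876 against 6.61 CPM, with ratios of 0.24 (0.03 to 0.91) and 0.13 (0.00 to 0.77). The call was lost with 5 CPM added in place of 1 (log2 ratio -0.90), when cells were weighted equally (-1.43), at a coarser clustering (-1.41) and at the finer one (-1.61). A Kit UMI was in 0.690% of monocyte-like cells against 3.97% of the others in suffix 3, and in 0.375% against 4.13% in suffix 4. Thinned, it was in 0 of 283 and 0 of 263 monocyte-like cells, which allows up to 1.06% and 1.14%, against 1.00% and 1.16% of the others, so the thinned shares do not show a difference at this depth. The median log2 ratio over the members was 0.74, against -0.07 over all measured genes. Of the partner chains, Ifngr2 was higher in the monocyte-like cells, at 127 against 56.5 and 115 against 52.2 CPM (1.14), and Il6st, at 13.4 against 7.85 and 16.6 against 7.96 CPM (0.84), was not called.

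The neutrophil-like cells differed in the other direction. Flt3 stood at 11.8 against 107 CPM in suffix 3 and 8.12 against 120 in suffix 4, a log2 ratio of -3.40 and the lowest of any member in the 3 classes. Csf1r stood at 7.36 against 56.7 and 12.2 against 56.1 CPM (-2.45). Il3ra stood at 17.7 against 100 and 22.3 against 96.8 CPM (-2.25). Il6ra, at 19.1 against 46.4 and 12.2 against 51.9 CPM (-1.62), was also called lower, but passed 2-fold in only 1 library under TMM scaling (-1.32) and median-of-ratios scaling (-1.28). Thus 4 of 9 members were lower, against 12.6% of genes, and these values rest on 4 to 13 UMIs per library.

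Csf3r was not called in the neutrophil-like cells, with a log2 ratio of 0.56. It stood at 28.0 against 25.2 CPM in suffix 3, a ratio of 1.11 (0.66 to 1.77), and at 44.7 against 22.3 in suffix 4, a ratio of 1.9998 (1.22 to 3.12). No member was called higher (0 of 9; 2.28% of genes were). Kit stood at 5.89 against 5.94 and 14.2 against 5.34 CPM, from 4 and 7 UMIs, Ifngr1 at 249 against 291 and 191 against 297 CPM, and Csf2ra and Csf2rb had log2 ratios of -0.20 and -0.40. The members' median, -0.43, was close to the -0.45 of all measured genes. The IL-6 partner Il6st had no UMI in these cells of either suffix, which puts it at least 2.08-fold lower than the other cells in suffix 3 and 1.59-fold in suffix 4, taken at 3 counts per library. Ifngr2 stood at 14.7 against 69.3 and 34.5 against 62.2 CPM and was not called (-1.496).

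No member was called in the granulocyte precursor-like cells, where 0.109% of genes were higher and 1.46% lower. Flt3 came closest, at 58.5 against 122, 57.0 against 114 and 61.9 against 115 CPM in suffixes 1, 2 and 4 (log2 ratio -0.99). It was called lower with a 1.5-fold limit and in 6 other treatments, with values of -1.19 (thinned), -1.31 (doublets removed), -1.35 (no filter on cells), -1.55 (lists allowed among the variable genes), -1.56 (Leiden resolution 1.5) and -1.60 (cell cycle, ribosomal and mitochondrial genes left out of them). Ifngr1 stood at 507 against 293, 458 against 285 and 322 against 290 CPM (0.68), so the last library, with 30 such cells, showed less of a contrast than the first and second. Kit, at 22.9 against 15.1, 16.6 against 14.2 and 8.26 against 5.78 CPM, had a log2 ratio of 0.45. The members' median was -0.04, and that of all measured genes -0.10.

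**Figure D2:**
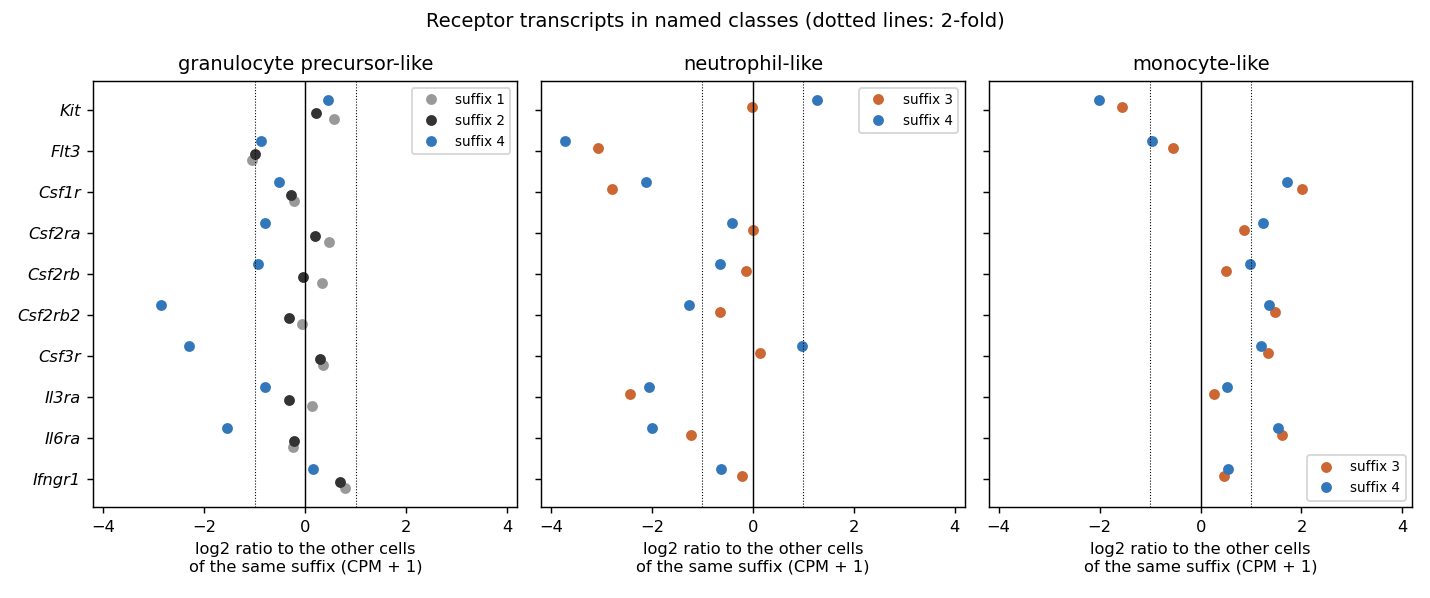
Log2 ratio of each member in granulocyte precursor-like, neutrophil-like and monocyte-like cells against the other cells of the same suffix, with 1 point per usable suffix and dotted lines at 2-fold. Csf1r, Il6ra and Csf3r lay beyond 2-fold upward in the monocyte-like cells in both suffixes, and Flt3 lay lowest in the neutrophil-like cells (-3.40).

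Across all 13 clusters the members had different peaks. These levels are taken over all suffixes, and clusters 0, 3 and 9 held mainly cells of suffixes 1 and 2 and clusters 6, 7, 10, 11 and 12 mainly cells of 3 and 4, so in their order library and cluster cannot be told apart. Cluster 12, 36 cells led by the interferon genes Ifit3, Irf7 and Rsad2, also had 13 monocyte and 5 macrophage markers raised. It had 5 dendritic cell and MHC class II markers raised as well. Csf1r was highest in cluster 12 (169.7 CPM) and in the monocyte-like cluster 11 (146 CPM), and lowest in the granulocyte precursor-like cluster 3 (2.28 CPM). Il6ra had the same 2 leading clusters (144 and 113 CPM), as did Csf3r (50.9 and 50.6 CPM). Csf2ra (128 CPM), Csf2rb (74.6 CPM) and Csf2rb2 (13.5 CPM) were highest in cluster 11. In each of these genes the leading clusters cannot be ordered, since their intervals overlap.

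Kit was highest in cluster 9 (30.3 CPM, 23.1 to 39.1), led by the basophil and mast cell genes Cpa3 and Mcpt8 and by Npy, with cluster 3 next at 23.4 CPM. Cluster 9 was not named. It had 5 stem and progenitor markers raised (Adgrg1, Angpt1, Sox4, Gata2 and Egfl7) and 3 basophil and mast cell markers. Of its 372 cells cluster 9 held 242 in suffix 1 and 108 in suffix 2, the libraries with more Kit. By library, among clusters of at least 30 cells, Kit was highest in cluster 3 in suffix 1 (27.9 CPM, with cluster 9 at 27.6), in cluster 9 in suffix 2 (41.5 CPM) and in cluster 6 in suffixes 3 and 4 (11.4 and 16.0 CPM). It had 1.22 CPM in cluster 11 and no UMI in cluster 12. With 36 cells, the interval in cluster 12 was 0 to 31.3 CPM, which reaches past the level of cluster 9. Flt3 was highest in cluster 1 (203 CPM, 187 to 221), cluster 7 (200.2 CPM), led by Cd74, and cluster 9 (190 CPM), and lowest in the neutrophil-like cluster 10 (9.69 CPM, 5.01 to 16.9). Il3ra peaked in cluster 7 (136 CPM) and was lowest in cluster 10 (19.4 CPM). Ifngr1 was highest in cluster 3 (570.0 CPM), then in cluster 6 (472 CPM), led by the eosinophil granule genes Prg2 and Prg3, and cluster 0 (429.8 CPM), and lowest in cluster 12 (187 CPM). Of the 12 pairs of neighbours in each gene's order, the intervals overlapped in 9 for Flt3, in 10 to 11 for Csf1r, Csf2ra, Il3ra, Il6ra and Ifngr1, and in all 12 for Kit, Csf2rb, Csf2rb2 and Csf3r.

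**Figure D3:**
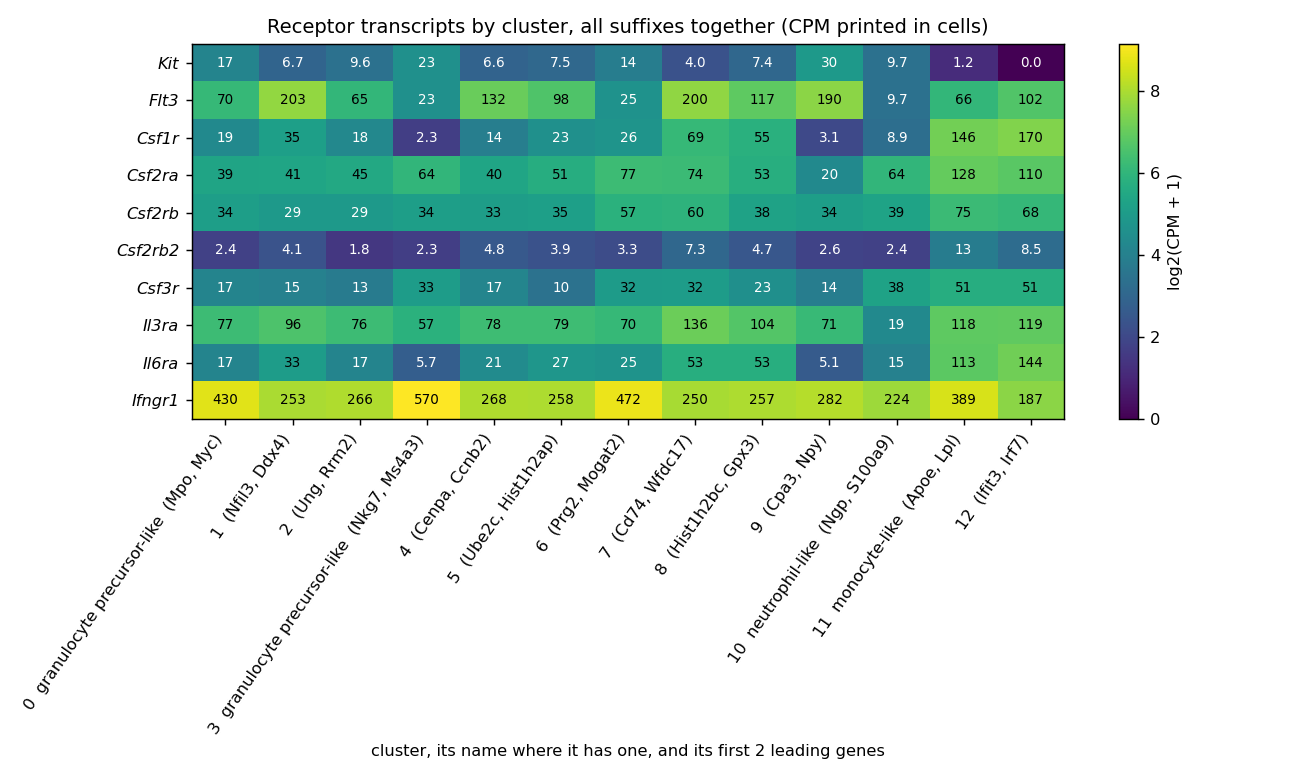
Level of each member (CPM) in each of the 13 clusters over all suffixes, printed and shown by colour as log2(CPM + 1). Csf1r and Il6ra were high in the same 2 clusters, 11 and 12, and Flt3 was highest in clusters 1, 7 and 9 and lowest in cluster 10 (9.69 CPM).

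By the 2-fold rule within suffixes, a few unnamed clusters differed from the rest of their libraries. Calls in unnamed clusters, and in cluster 3 taken alone, were not repeated under the other treatments of the data. In cluster 1 Flt3 stood at 217 against 95.8, 174 against 80.7, 195 against 92.3 and 234 against 103 CPM in suffixes 1 to 4, and was the 1 member called higher (log2 ratio 1.13), while 0.0849% of genes were (1.2% lower). Flt3 was above the other cells in all 4 libraries. In cluster 9, usable in suffixes 1 and 2, Csf1r (2.98 against 16.0 and 1.89 against 17.3 CPM) and Il6ra (5.96 against 17.3 and 1.89 against 15.3 CPM) were lower, where 2.52% of genes were. Kit (27.6 against 15.2 and 41.5 against 13.5 CPM) and Flt3 (172 against 89.3 and 219 against 80.1 CPM) both had a log2 ratio of 1.19 there and were not called, since each missed 2-fold in suffix 1.

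Cluster 6, usable in suffixes 3 and 4, was the 1 cluster in which Kit was called higher. Kit stood there at 11.4 against 5.10 and 16.0 against 4.50 CPM (log2 ratio 1.33, with 1.23% of genes higher), with ratios of 2.24 (1.16 to 4.11) and 3.55 (1.83 to 6.60). Both intervals reach below 2-fold, and whether the call holds with 5 CPM added was not tested. Flt3, at 27.5 against 111 and 22.0 against 125 CPM (-2.22), was lower, as were 4.11% of genes. Cluster 3, taken alone in suffixes 1 and 2, had lower Flt3 (31.1 against 110 and 19.3 against 99.5 CPM) and lower Csf1r (4.92 against 14.5 and 0.917 against 18.7 CPM, from 3 and 1 UMIs), where 3.41% of genes were lower. High Kit and low Flt3 thus occurred together in cluster 6. Over all suffixes cluster 3 also joined high Kit to low Flt3 (23.4 CPM each), though Kit was not called there. Cluster 9 had high levels of both.

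The other clusters gave no call of a member in either direction. Of all measured genes, 0.0121% were higher and 2.12% lower in cluster 0, 0.837% and 1.29% in cluster 2, 0.34% and 1.26% in cluster 4, and 1.92% and 0.704% in cluster 5. In cluster 7 they were 0.837% and 3.35%, and in cluster 8 0% and 1.42%. Cluster 12 had too few cells in any suffix for this rule.

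Over the 13 clusters the profile of Csf1r was most like that of Il6ra (Pearson correlation of log2 values 0.99), and next those of Mpeg1 (0.97) and Pde8b. Kit was the reverse of both, at -0.89 with Csf1r and -0.93 with Il6ra. These values take Kit as 0 in cluster 12, where Csf1r and Il6ra were highest and the interval of Kit was 0 to 31.3 CPM. Its nearest genes were Slc6a13, Myc and Cd81 (0.93 each), and those of Flt3 were Elf1 (0.94), Pafah1b3 and Cd34. The profile of Il3ra was nearest to H2-DMa (0.97), an MHC class II accessory gene, then Tifab and Creg1. Among members, Csf2ra went with Csf3r (0.82) and Csf2rb (0.80), and Il6ra with Csf2rb2 (0.86). The genes nearest to Csf2ra were Lair1 (0.94) and Srd5a3; for Csf2rb Dnajb14 (0.92), March1 and Mboat7; for Csf2rb2 Rab14 (0.97), Myo1g and Capzb. For Csf3r they were Ralb (0.95), Adipor1 and Cdk2ap2, for Il6ra, after Csf1r, Susd3 (0.97) and Mpeg1, and for Ifngr1 Plpp5 (0.89), Nucb2 and B4galt1. The points share 4 libraries, clusters 0 to 12 differ in depth, and the nearest genes were picked from 6595 candidates, so these correlations are a description.

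Co-detection was measured in thinned cells as the number of cells with both of a pair, over the number given by the product of their shares in each suffix. Of the 45 member pairs, 28 were above 1, with a median of 1.08. The interval lay above 1 in 3 pairs and below it in 1. When the product was taken within clusters, 27 pairs were above 1 with a median of 1.02, and the interval lay above 1 in 2 pairs and below it in 0. Pairs of other genes were not counted in the same way, and the intervals take the expected number as exact. The numbers of pairs are therefore not a result about these receptors.

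Csf1r and Il6ra were together in 77 cells against 42.6 from their shares, a ratio of 1.81 (1.43 to 2.25), and the ratio was 1.40, 1.48, 1.79 and 1.88 in suffixes 1 to 4, from 2, 2, 36 and 37 cells. Within clusters it was 1.33 (1.05 to 1.66). Without suffix 3 that ratio was 1.33 (0.95 to 1.79) and without suffix 4 1.29 (0.93 to 1.76), so its interval no longer lay above 1. This pair, and Csf3r with Il3ra and Csf2ra with Il3ra, were singled out after their values were seen. Csf3r and Il3ra had a ratio of 1.35 (1.03 to 1.74) when thinned but 1.02 (0.90 to 1.14) unthinned. Csf2ra and Il3ra, the alpha chains for GM-CSF and IL-3, had 124 cells against 103, a ratio of 1.20 (1.00 to 1.43).

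For an alpha chain with its beta chain the counts were near those given by the separate shares. Csf2ra and Csf2rb were together in 64 cells against 54.1, a ratio of 1.18 (0.91 to 1.51), and Il3ra and Csf2rb in 63 against 71.2, a ratio of 0.88 (0.68 to 1.13). Il3ra and Csf2rb2 were together in 9 cells against 9.31, and the beta chains Csf2rb and Csf2rb2 in 7 against 4.93, a ratio of 1.42 (0.57 to 2.93). A UMI of both chains in 1 cell was thus rare at this depth, and the intervals leave room for ratios on both sides of 1. The same held for Il6ra with Il6st, at 1.54 (0.77 to 2.76), and Ifngr1 with Ifngr2 was at 0.97 (0.86 to 1.09).

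Flt3 and Ifngr1 were together less often than their shares give, in 414 cells against 457, a ratio of 0.91 (0.82 to 0.99), which within clusters was 0.98. Kit and Csf1r were together in 2 thinned cells against 6.31, a ratio of 0.32 (0.04 to 1.15). With all UMIs they were together in 29 cells against 47.7, a ratio of 0.61 (0.41 to 0.87), and within clusters of 0.77 (0.51 to 1.10). Kit and Flt3 had a ratio of 1.11 (0.72 to 1.64), Flt3 and Csf1r 1.04, Csf1r and Csf3r 0.93, and Kit and Csf3r 0.61 from 3 cells.

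**Figure D4:**
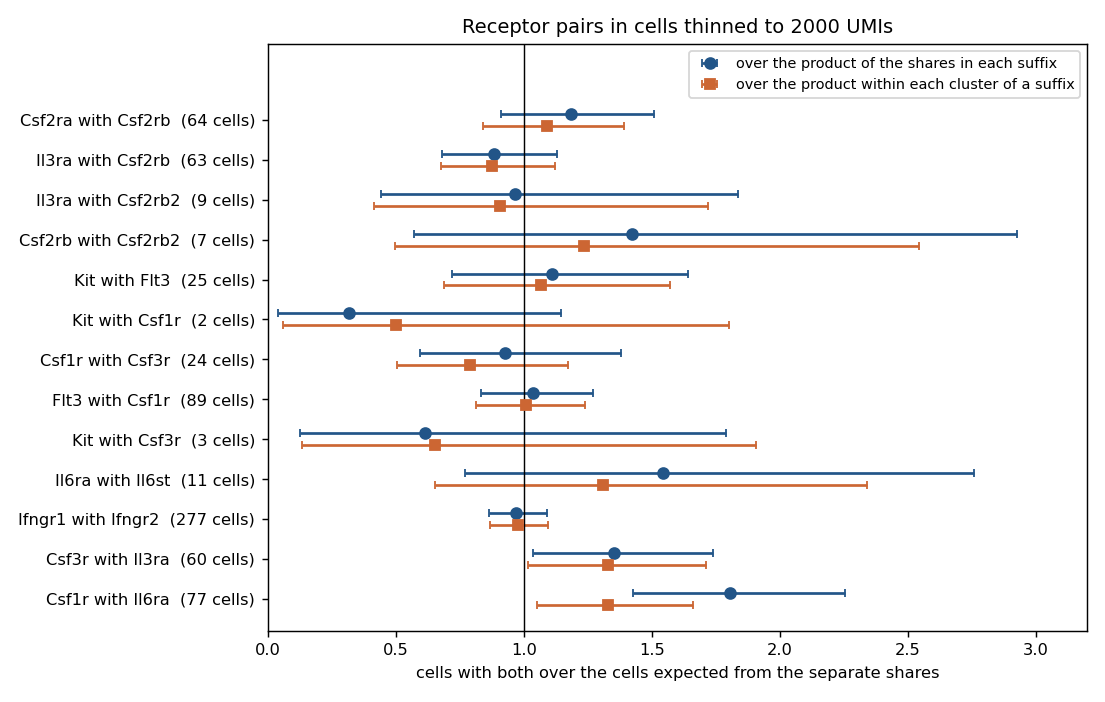
Cells with both members of a pair over the number given by the product of their shares, for 13 pairs in cells thinned to 2000 UMIs, with the shares taken in each suffix (circles) or in each cluster of a suffix (squares) and exact 95% intervals as bars. Csf1r with Il6ra lay above 1 both ways (1.81 and 1.33), and the alpha and beta chain pairs had intervals that included 1.

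In suffix 3, 56 of 290 monocyte-like cells (19.3%) held UMIs of both Csf1r and Il6ra, against 83 of 1335 other cells (6.22%), and in suffix 4, 46 of 267 (17.2%) against 80 of 1139 (7.02%). Thinned, the shares were 6.71% (4.09% to 10.3%) against 1.31% (0.765% to 2.09%) in suffix 3, and 7.22% (4.41% to 11.1%) against 1.60% (0.953% to 2.52%) in suffix 4. Cells with both were thus more frequent in the monocyte-like class in both libraries. Thinned neutrophil-like cells with both numbered 0 of 106 and 0 of 83, which allows up to 2.83% and 3.61%, against 2.44% and 2.84% of the other cells, so no difference was detectable. Granulocyte precursor-like cells lay mainly in suffixes 1 and 2, where 1 thinned cell in each held both. Il6ra was found in 40.6% of the monocyte-like cells with Csf1r, and Csf1r in 48.1% of those with Il6ra. The share of each gene in the whole class is not given beside these, so they do not show that the receptors went together. In cluster 9 Kit and Flt3 were found together in 30 of 372 cells (8.06%, 5.51% to 11.3%). Of its cells with Kit 62.5% also held Flt3, close to the 61.6% of all its cells that did.

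A thinned cell held on average 1.14, 1.12, 1.33 and 1.33 of the 10 receptors in suffixes 1 to 4. Counting all UMIs the averages were 2.42, 2.45, 2.76 and 2.84. No receptor was seen in 22.4% to 25.5% of thinned cells of each suffix. At least 3 were seen in 6.38% and 7.15% of cells in suffixes 1 and 2, and in 13.7% and 13.1% in suffixes 3 and 4. By class the mean was 1.86 in monocyte-like cells, of which 25.8% held at least 3 and 10.5% none. It was 1.13 in granulocyte precursor-like cells (5.88% and 22.0%) and 0.75 in neutrophil-like cells (0.995% and 42.3%). The classes lie in different libraries, so these means also hold the difference between libraries. Within suffix 3 the mean was 1.80 in monocyte-like and 0.726 in neutrophil-like cells. Within suffix 4 it was 1.91 and 0.771, and 0.966 in granulocyte precursor-like cells, of which there were 29. In both libraries monocyte-like cells held more of the receptors than neutrophil-like cells. Other genes were not counted per cell in this way. The median log2 ratio over all measured genes was also lower in neutrophil-like cells (-0.45) than in monocyte-like cells (-0.07). The difference is therefore not shown to be particular to the receptors.

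**Figure D5:**
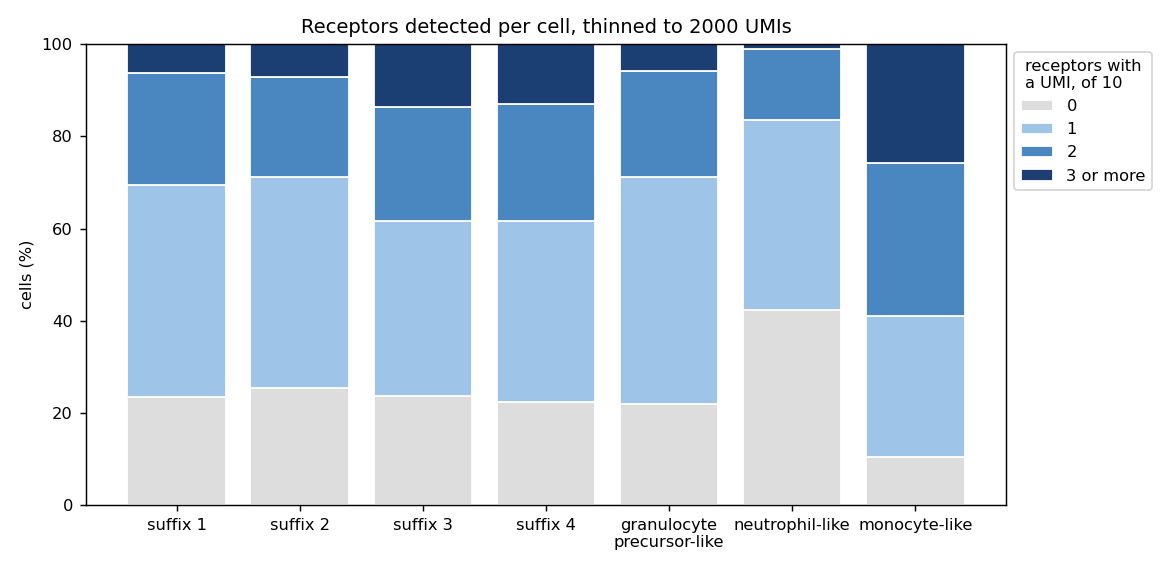
Share of cells (%, stacked bars) with 0, 1, 2 or at least 3 of the 10 receptors detected after thinning to 2000 UMIs, for each suffix and each named class. Monocyte-like cells held at least 3 receptors in 25.8% of cells, and neutrophil-like cells held none in 42.3%.

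The ligands of these receptors were nearly absent from the cells. Of 9 ligand genes none reached 5 CPM. Flt3l had 173 UMIs (4.87 CPM) and Csf1 65 UMIs (1.86 CPM) over all cells, and the other 7, among them Kitl, Csf2, Csf3, Il3, Il6 and Ifng, had none, which allows up to 0.0871 CPM each.

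Of the other cytokine receptors, 14 of 25 were measured. In monocyte-like cells 4 were higher: the interferon receptor chain Ifnar2 (log2 ratio 1.17), the IL-17 receptor Il17ra (1.81), the TNF receptor Tnfrsf1b (1.40) and the IL-13 receptor Il13ra1 (3.41). The IL-7 receptor Il7r, with no UMI in the class, and the IL-1 decoy receptor Il1r2 (-1.69) were lower. Over all measured genes 4.27% were higher and 8.02% lower in this class. The list's median was 0.58. In neutrophil-like cells Il1r2 was the 1 receptor higher (2.06), and Il7r, Ifnar1 (-2.54), Il17ra (-2.20) and Il13ra1 (-2.38) were lower, beside 2.28% and 12.6% of all measured genes. The IL-10 receptor chain Il10rb was the most abundant of the list, at 75.7 to 114 CPM in the suffixes. In granulocyte precursor-like cells Il1r2 (-1.72) was the only gene of any pathway list to be called.

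Among the signalling genes downstream, most did not pass 2-fold in any class. In monocyte-like cells 1 of 10 JAK and STAT genes was higher, Stat6 (1.03), and the kinases Jak1 (41.4 to 53.8 CPM in the suffixes) and the transcription factor Stat3 (41.3 to 43.9 CPM) were not called. Of 13 adaptors and kinases 2 were higher, among them the Src-family kinase Lyn, at 197 against 75.7 and 230 against 84.2 CPM (1.40). Of 8 phosphatases and ubiquitin ligases that limit signalling 2 were higher, Ptprc (1.09) and the adaptor Sh2b3 (1.35). The phosphatase Ptpn6 stood at 215 to 262 CPM in the suffixes and the kinase Fes at 106 to 153 CPM. Of 9 feedback and early target genes Mcl1 (1.15) was higher, Myc (-3.24) and Ccnd2, with no UMI in the class, were lower. None of 7 interferon gamma targets was called, although Irf8, a transcription factor of the monocyte lineage, stood at 373 to 571 CPM in the suffixes and Psmb8 at 628 to 1109. The list medians were 0.47 for JAK and STAT genes, 0.47 for adaptors, 0.46 for phosphatases, 0.57 for feedback genes and -0.36 for interferon gamma targets.

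In neutrophil-like cells the JAK genes Jak3 and Tyk2 (-1.51) were lower. Of the interferon gamma targets 3 of 7 were lower, Gbp2, Gbp3 (-3.70) and Irf8 (-5.35), the last at 28.0 against 561 and 6.09 against 605 CPM. No phosphatase or feedback gene was called, and Ccnd3, a cyclin at 173 to 192 CPM in the suffixes, was among them. The list medians were -0.67 for other receptors, -0.23 for JAK and STAT genes, -0.38 for adaptors, -0.37 for phosphatases, -0.03 for feedback genes and -1.03 for interferon gamma targets, beside -0.45 over all measured genes.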

How the data were processed

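Single cells of 4 samples were profiled by 3' droplet sequencing, and the values analysed are the whole UMI counts per gene and cell that the authors deposited in 1 table. Per the submitters' processing notes the tools were Cell Ranger 1.3 and Seurat 2.3.4 with the mm10 build; the series' design text names Seurat 1.4. The sources used here do not say how strand and reads with several matches were handled. The members and gene lists were chosen with earlier results of these data known.

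Barcodes under 500 UMIs (none) or above 10% mitochondrial UMIs (208) were removed. UMIs were summed per suffix, cluster or class and divided by the total (CPM). Clusters came from scanpy 1.11.5 and igraph 0.11.9 (2000 variable genes without members or pathway lists, 30 principal components, 15 neighbours, Leiden resolution 1). A cluster was named where at least 3 markers of a type were raised 2-fold at 20 CPM or more, the most of any type, with at least 2 among its 10 leading genes and no other type with more there. Scrublet marked 27 cells (0.495%) as doublets, which were kept, and doublets may remain. Since each suffix is 1 library of unknown group, there are no p-values. Intervals are exact 95% Poisson or binomial intervals (conditional binomial for ratios), and a count of 0 was given a limit of 3 counts. Python 3.11.15, numpy 2.4.6, scipy 1.17.1, pandas 2.3.3, R 4.3.3 and edgeR 4.0.16 (TMM factors only) were used, MAFFT 7.526 aligned the Csf2rb and Csf2rb2 transcripts, and the steps were tested on simulated data. Named genes are the members, from each pathway list the 2 measured genes of highest level and the 2 others of widest range over clusters, the called genes, the 3 genes most like each member, and up to 5 leading genes per cluster. Some genes that this rule names are not reported here.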

Additional observations from a re-analysis of the deposited data

How the results depend on the processing

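Members past 2-fold between suffixes numbered 3 or 4 under each alternative run (4 with cells weighted equally and with either other scaling), and members lower in neutrophil-like cells 3 or 4 (3 with either other scaling). Other counts were small and moved. Members lower in granulocyte precursor-like cells went from 0 to 1 (Flt3) at a 1.5-fold limit, with cells thinned, at Leiden resolution 1.5, without cell cycle, ribosomal and mitochondrial genes and without doublets, and to 2 (Flt3 and Il6ra) with the lists allowed among variable genes and with no filter. Members higher in neutrophil-like cells went from 0 to 1 at resolution 1.5 and with no filter, and ranged from 0 to 1 when a suffix was left out (1 without suffix 3, from Kit). Members lower in monocyte-like cells went from 1 to 0 with cells weighted equally, with 5 CPM added and at resolution 0.5, and to 2 (Flt3 and Csf3r, without Kit) at resolution 1.5. At resolution 1.5 the monocyte-like class was another one, of 83 cells, in which 0 members were higher and Csf3r was reversed (-1.25); with no filter it had 41 cells and gave no value, and a stricter naming rule gave no such class. Pairs above the product of their shares went from 3 to 6 at 4000 UMIs and 7 unthinned, and ranged from 1 to 4 when a suffix was left out (1 without suffix 2). Within clusters they went from 2 to 1 at 4000 UMIs and with cell cycle, ribosomal and mitochondrial genes left out of the variable genes, and ranged from 0 to 2 (0 without suffix 3, 1 without suffix 2 or 4). Mean receptors per cell, as the median over suffixes, went from 1.24 to 1.95 at 4000 UMIs and 2.61 unthinned, since more UMIs are read per cell. Apart from these the cause of each change was not tested. Member calls were rerun for the 3 named classes only, and not for the unnamed clusters. No paired analysis was possible because the columns carry no sample or replicate number. Depth limits Kit, Csf2rb2 and Il6st most, with 50 to 133 UMIs of Kit per suffix, and a count of 0 in a suffix allows up to 0.302 to 0.392 CPM.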
